A study of Mus musculus with 16 samples.

Results

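Calb1 and 8 other genes of duct epithelium (Mal, Sgpp2, Wfdc2, Epcam, Spint1, Spint2, St14 and Prom1) were followed through the embryonic mouse kidney at stage E11.5. They are 9 of the 18193 genes with a symbol of their own on the arrays. The 9 genes were chosen with their levels in ureteric bud and mesenchyme already known, so their difference between those tissues is described here without a test. Each had at least 1 probe set that carries its symbol alone, 15 of 45037 probe sets in all, and was read through the probe set with the highest mean log2 signal over the 16 arrays. Not all of their products sit at the cell surface: calbindin (Calb1) is cytosolic, the enzyme Sgpp2 lies in the endoplasmic reticulum and Wfdc2 is secreted, while the other 6 are membrane proteins.

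The 16 samples fall into 4 groups, all from E11.5 embryos. The ureteric bud (UB) group holds 4 wild-type samples, each a pool of 3 to 9 buds freed by hand after collagenase B at 0.5 mg/ml and 37 °C. Wild-type metanephric mesenchyme (MM) separated from the bud by hand in the same treatment gave 3 samples, replicates 5 to 7, each from individual mesenchymes. MM lacking both Hoxa11 and Hoxd11, a pair of homeobox genes without which the kidney hardly forms, gave 5 samples, lifted by laser capture out of 7 µm sections of urogenital ridges. Wild-type MM captured the same way gave 4 samples, but out of 7 µm sections of kidney rudiments and with 3 to 4 mesenchymes pooled per sample. Tissue piece and pooling therefore change together with genotype between the captures and cannot be told apart from it. The series text describes replicates as separate embryos. The labels name no strain, litter or scan date by which a batch could be examined. Values are signals of the MAS5 algorithm on a linear scale, and differences are on the scale of log2(signal + 36.3), where 36.3 is the 25th percentile of all values. This scale understates the change of dim genes.

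The ureteric bud is a tube of polarized epithelium that grows out of the nephric duct, enters the MM and branches into the collecting ducts. Its cells adhere through Epcam and cadherins, sort proteins to the apical membrane, and carry the protease matriptase (St14) together with its inhibitors Spint1 and Spint2, a pairing that maintains epithelial barriers in many organs of the mouse. Calb1 is a classical marker of the bud and of the distal nephron, and Prom1 (CD133) marks apical protrusions and various progenitor cells.

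RefSeq promoters of build GRCm38.p6, with 250 bases before and 50 from the transcript start, were at hand for 7 of the 9 genes. The consensus of grainyhead-like factors (AACCGGTT), the consensus of the Hnf1 factors and the TATA box (TATAAA) were searched on both strands. They occurred in 0 of the 7 genes, against 0.146%, 0.00913% and 13.6% of 32851 promoters. After the letters had been seen, the core ACCGGT, which lies inside AACCGGTT, and the E-box CACCTG were counted as well. ACCGGT was held by Epcam and Spint1, 2 of 7 genes, against 2.68% of all genes (2.33% of promoters). CACCTG was held by 5 of 7 genes, namely Sgpp2, Wfdc2, Epcam, Spint2 and Prom1, against 22.6% of all genes (20.2% of promoters). The GC content of the 7 genes' promoters was 50.3% to 72%, against a median of 52.7% over all promoters, and its part in these shares was not tested. With base 0 as the transcript start, ACCGGT began at -174 and -131 in Epcam and at -77 in Spint1, and CACCTG began at -74, -55 and -9 in Spint2. These matches are letters only, and binding was not measured. The promoters with ACCGGT, and those of Spint2 and Wfdc2 as examples with more than 1 CACCTG, are printed 5′ to 3′ along the gene's strand, with the letters of both motifs, on whichever strand, in capitals, for Epcam (chr17:87635729-87636028, plus strand), Spint1 (chr2:119237110-119237409, plus strand), Spint2 (chr7:29281928-29282227, minus strand) and Wfdc2 (chr2:164562465-164562764, plus strand).
Epcam: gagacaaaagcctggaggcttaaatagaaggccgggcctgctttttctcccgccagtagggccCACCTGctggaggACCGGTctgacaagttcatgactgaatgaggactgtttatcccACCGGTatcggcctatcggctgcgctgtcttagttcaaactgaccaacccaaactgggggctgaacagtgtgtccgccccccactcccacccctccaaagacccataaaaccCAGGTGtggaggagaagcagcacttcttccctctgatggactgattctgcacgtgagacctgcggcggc
Spint1: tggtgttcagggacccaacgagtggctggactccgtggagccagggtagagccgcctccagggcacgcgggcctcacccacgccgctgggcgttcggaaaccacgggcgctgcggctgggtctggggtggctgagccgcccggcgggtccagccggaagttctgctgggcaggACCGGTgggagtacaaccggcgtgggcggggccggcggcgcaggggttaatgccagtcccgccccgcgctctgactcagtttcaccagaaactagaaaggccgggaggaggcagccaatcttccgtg
Spint2: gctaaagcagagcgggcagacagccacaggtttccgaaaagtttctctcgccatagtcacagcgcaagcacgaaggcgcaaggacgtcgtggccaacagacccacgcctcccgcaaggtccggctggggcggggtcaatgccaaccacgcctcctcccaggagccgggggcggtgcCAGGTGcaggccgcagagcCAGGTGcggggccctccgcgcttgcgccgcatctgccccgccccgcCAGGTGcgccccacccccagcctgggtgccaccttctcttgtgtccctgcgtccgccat
Wfdc2: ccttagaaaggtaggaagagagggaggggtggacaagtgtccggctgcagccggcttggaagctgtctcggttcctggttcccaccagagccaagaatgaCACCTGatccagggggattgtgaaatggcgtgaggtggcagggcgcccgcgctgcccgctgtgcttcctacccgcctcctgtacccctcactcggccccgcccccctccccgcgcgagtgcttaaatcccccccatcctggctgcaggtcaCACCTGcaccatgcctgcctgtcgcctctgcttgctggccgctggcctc

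Several facts about the arrays touch every value that follows. Hoxa11 signal was 91.8 to 197 in the null captures and 526 to 840 in the wild-type captures, without overlap. Hoxd11 signal was 192 to 482 in the null captures and 318 to 587 in the wild-type captures, which overlap; the labels do not say whether its probes lie in the deleted stretch. Null capture 1 stood apart, with a median correlation to the other null captures of 0.896, against 0.928 to 0.933 for those. The median signal of an array also differed between the captures. It was 209.2 in null capture 1, 112.7 to 128.9 in the other null captures and 162.8 to 182.3 in the wild-type captures. The ratio of 3′ to 5′ Gapdh control signal, an indicator of RNA quality, was 6.53 to 12.2 in UB and 22.1 to 69.3 in MM by hand. That ratio was 18.4 to 26.3 in the null captures and 14.3 to 22.9 in the wild-type captures. The Actb ratio overlapped between UB, at 10.9 to 16.3, and MM by hand, at 11.1 to 17.9, and was 17.5 to 27.6 in the null captures and 14.8 to 20.9 in the wild-type captures. The part of these ratios in the results was not tested.

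Calb1, which encodes a cytosolic protein that buffers calcium, had a wide gap between bud and hand-dissected mesenchyme. Calb1 signal was 55389, 55890, 66116 and 68976 in UB, against 172, 170 and 124 in MM by hand. The bud was thus 397-fold higher as a ratio of group means, a log2 difference of 8.33. In the null captures Calb1 read 79.4, 5053, 5456, 4044 and 6880, against 9188, 27963, 3731 and 14170 in the wild-type captures. Null capture 1 fell below all 3 hand-dissected mesenchymes, while the other 4 null captures lay above the lowest wild-type capture and below the remaining 3. As a share of the mean bud signal, the null captures held 0.129%, 8.20%, 8.86%, 6.57% and 11.2%, and the wild-type captures 14.9%, 45.4%, 6.06% and 23.0%. The other 3 Calb1 probe sets put the second wild-type capture at 40.1%, 13.0% and 6.30% of bud, so the share depends on the probe set. The reason was not tested. These 3 probe sets were too dim in the captures to be tested between the genotypes. One of them read 2.1 to 63.2 in the null captures, all below their array medians, against 78.6 to 924 in the wild-type captures, without overlap. In MM by hand the representative probe set gave 0.201% to 0.279% of bud.

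Mal encodes a membrane protein of the apical sorting machinery. Mal signal was 8638, 13672, 10691 and 8006 in UB, against 21.5, 10.6 and 3.0 in MM by hand, where all 3 values lay below the median of their own arrays. The null captures read 269, 335, 9.5, 142 and 2944, and the wild-type captures 316, 877, 179 and 540. Null capture 3 was as low as the hand-dissected mesenchymes, and null capture 5 was more than any wild-type capture. Relative to bud, the null captures held 2.62%, 3.27%, 0.0927%, 1.39% and 28.7% of the Mal signal, against 3.08%, 8.55%, 1.75% and 5.26% in the wild-type captures. A second Mal probe set gave 20.1% of bud in null capture 3 and 43.0% in null capture 5, so the low value of null capture 3 rests on 1 probe set.

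Sgpp2 encodes a phosphatase that removes the phosphate from sphingosine-1-phosphate. Its signal was 24605, 31695, 25728 and 27365 in UB, against 190, 155 and 263 in MM by hand. The null captures read 182, 4524, 2746, 1125 and 5020, and the wild-type captures 733, 2914, 634 and 3099. Null capture 1 fell into the range of the hand-dissected mesenchyme, and the remaining captures of both genotypes overlapped. The shares of the bud level were 0.667%, 16.5%, 10.0%, 4.11% and 18.4% in the null captures and 2.68%, 10.7%, 2.32% and 11.3% in the wild-type captures.

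Wfdc2 encodes a secreted protein with whey acidic protein domains. UB read 10344, 17744, 15425 and 17051, against 1081, 1026 and 731 in MM by hand. In the null captures Wfdc2 signal was 2312, 12892, 11870, 1598 and 5810, and in the wild-type captures it was 5700, 7585, 1544 and 3811. Null captures 2 and 3 lay within the bud range, and the other 3 null captures fell among the wild-type ones. Their shares of bud were 15.3%, 85.1%, 78.4%, 10.6% and 38.4%, against 37.6%, 50.1%, 10.2% and 25.2% in the wild-type captures. All 9 captures were above the 4.83% to 7.14% of the hand-dissected mesenchyme.

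Epcam encodes the adhesion molecule found on nearly all simple epithelia. Its signal was 29448, 33970, 38481 and 35526 in UB, against 1211, 1127 and 1230 in MM by hand. The null captures read 6502, 6418, 7909, 3307 and 12803, and the wild-type captures 4870, 11335, 1739 and 8096. Every capture exceeded every hand-dissected mesenchyme and stayed below every bud, and the genotypes overlapped. The null captures held 18.9%, 18.7%, 23.0%, 9.63% and 37.3% of the bud level, against 14.2%, 33.0%, 5.06% and 23.6% in the wild-type captures. A dimmer Epcam probe set, of the x type whose probes can also bind other transcripts, ran the other way between the genotypes, with 12.2% to 34.2% of bud in the null captures and 20.4% to 46.7% in the wild-type captures.

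St14 encodes matriptase, a membrane-anchored serine protease. Its signal was 7338, 10103, 7272 and 6786 in UB, against 112, 72.0 and 82.8 in MM by hand, where all 3 values were below their array medians. The null captures read 1331, 1030, 921, 239 and 776, and the wild-type captures 458, 862, 152 and 620. The 3 highest captures were null ones, and the lowest was wild-type capture 3. Shares of bud were 16.9%, 13.1%, 11.7%, 3.03% and 9.86% in the null captures and 5.81%, 10.9%, 1.93% and 7.88% in the wild-type captures.

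Spint1 encodes a membrane-bound Kunitz-type inhibitor of matriptase. UB read 3370, 6535, 3830 and 3387, against 117, 153 and 124 in MM by hand. Spint1 signal in the null captures was 989, 588, 214, 305 and 607, and in the wild-type captures 469, 690, 413 and 595. The wild-type captures formed a tight band inside the wider null range. They held 10.97%, 16.1%, 9.64% and 13.9% of the bud level, and the null captures 23.1%, 13.7%, 4.99%, 7.13% and 14.2%.

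Spint2 encodes a related inhibitor of the same protease, read here through a probe set of the x type. Its signal was 26438, 35157, 36685 and 34380 in UB, against 1963, 3129 and 2850 in MM by hand. The null captures read 4418, 15815, 9468, 4064 and 13916, against 5700, 9068, 2871 and 8473 in the wild-type captures. Wild-type capture 3 lay within the range of the hand-dissected mesenchyme, the one wild-type capture of any of the 9 genes to do so, and null captures 2, 3 and 5 were the highest of the captures. Shares of bud were 13.3%, 47.7%, 28.5%, 12.3% and 42.0% in the null captures and 17.2%, 27.3%, 8.66% and 25.5% in the wild-type captures. The second Spint2 probe set gave 10.8% to 35.3% in the null captures and 10.7% to 21.6% in the wild-type captures.

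Prom1 encodes a cholesterol-binding glycoprotein of membrane protrusions and differed in pattern from the other 8 genes. Its signal was 36111, 44838, 38428 and 40893 in UB, against 15835, 15995 and 15524 in MM by hand. The bud was 2.54-fold higher as a ratio of group means, the smallest such ratio of the 9 genes. The null captures read 31088, 49526, 31977, 47095 and 43422, and the wild-type captures 20020, 23700, 26601 and 26427. No null capture was as low as any wild-type capture, and no wild-type capture was as low as any hand-dissected mesenchyme. Relative to bud, the null captures held 77.6%, 123.6%, 79.8%, 117.5% and 108.4%, against 49.96%, 59.1%, 66.4% and 66.0% in the wild-type captures and 38.7% to 39.9% in MM by hand.

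**Figure D1:**
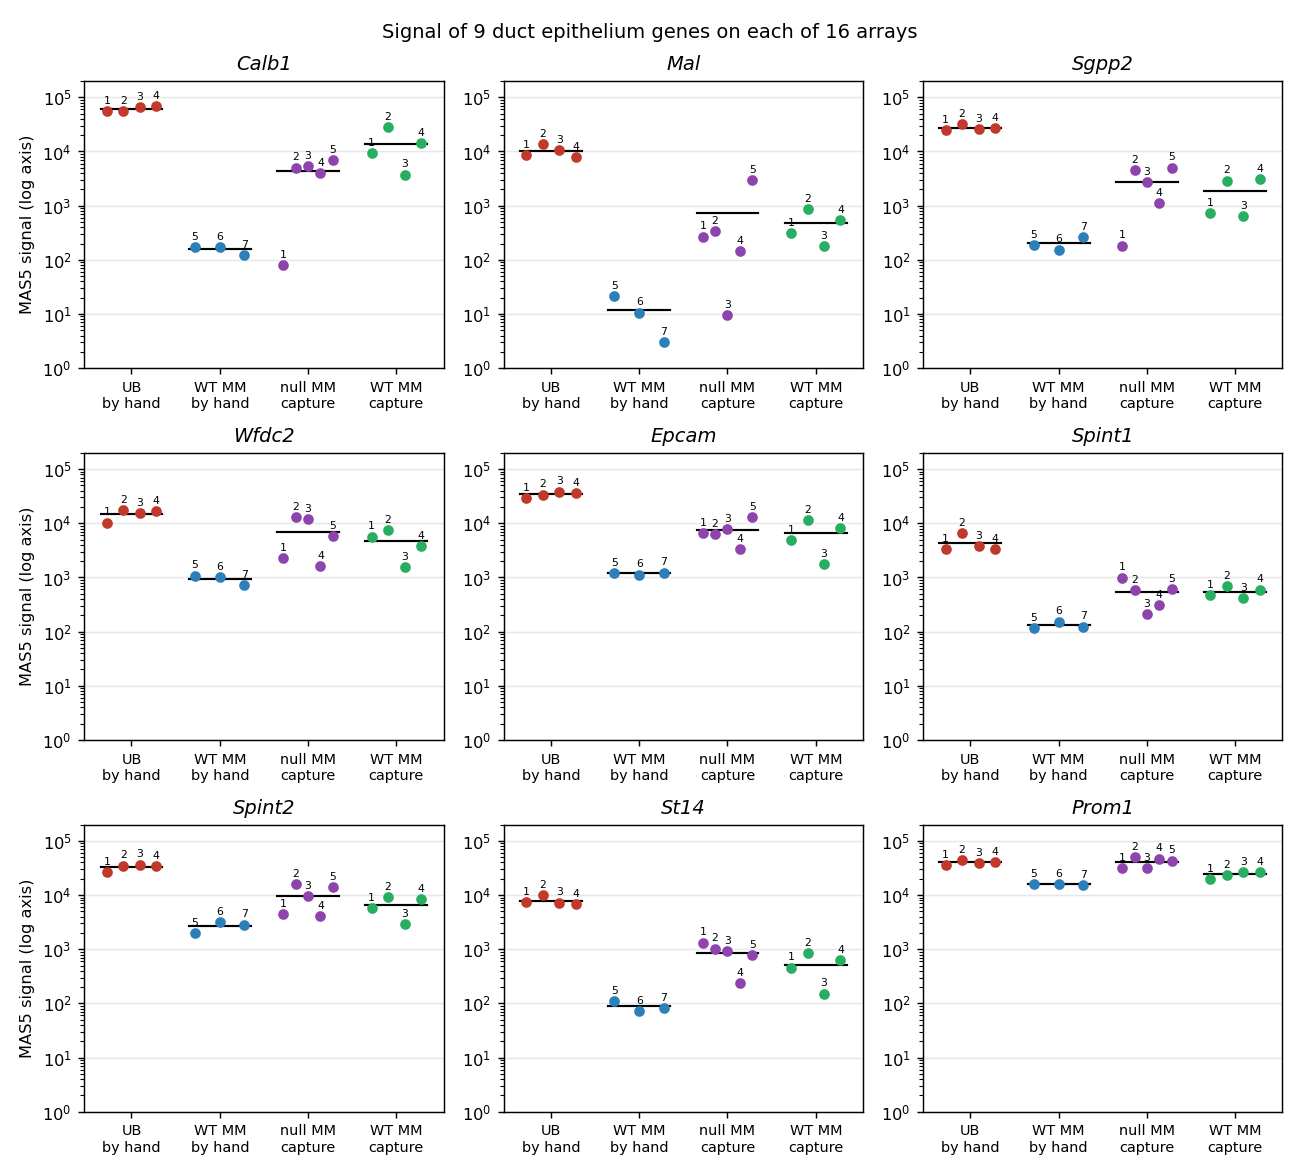
MAS5 signal (log axis) of the 9 genes on each of the 16 arrays, 1 panel per gene, with groups along the horizontal axis. Points are arrays, numbered by replicate, and horizontal lines are group means. Bud arrays lie above hand-dissected mesenchyme in all panels, the captures lie between or overlap one of them, and only in the Prom1 panel are null and wild-type captures apart.

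All 4 bud arrays exceeded all 3 arrays of MM by hand for 9 of the 9 genes, where 17.5% of 12435 genes had arrays apart in that direction; the genes were chosen on this contrast. The ratio of group mean signals ran between 2.54 for Prom1 and 397 for Calb1, leaving out Mal, whose mesenchyme signals of 3.0 to 21.5 were too low for a ratio. Wild-type captures and MM by hand were apart for 8 of 9 genes, all higher in the captures, where the share over 12172 genes was 19.5%. Spint2 was the exception. The genes were chosen with their levels in these same hand-dissected arrays known, so this count is description and not a result. The difference of wild-type captures minus MM by hand was 5.83 for Calb1, 3.24 for Mal, 2.65 for Sgpp2, 2.06 for Wfdc2 and 2.12 for Epcam. It was 1.77 for Spint1, 1.19 for Spint2, 1.96 for St14 and 0.61 for Prom1, all on the log2 scale. Beside these stand the differences of UB minus MM by hand, 8.33 for Calb1, 7.73 for Mal, 6.86 for Sgpp2, 3.94 for Wfdc2 and 4.81 for Epcam. They were 4.64 for Spint1, 3.64 for Spint2, 5.98 for St14 and 1.34 for Prom1. Both sets use the same hand-dissected arrays, so their likeness is not a result. Fewer epithelial cells and less RNA per cell cannot be told apart in such bulk samples.

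Averaged over arrays, the genes kept different shares of the bud level. In the null captures the order was Prom1 at 101.4%, Wfdc2 at 45.5%, Spint2 at 28.8%, Epcam at 21.5%, Spint1 at 12.6%, St14 at 10.9%, Sgpp2 at 9.94%, Mal at 7.22% and Calb1 at 6.99%. In the wild-type captures it was Prom1 at 60.4%, Wfdc2 at 30.8%, Calb1 at 22.3%, Spint2 at 19.7%, Epcam at 18.9%, Spint1 at 12.7%, Sgpp2 at 6.75%, St14 at 6.64% and Mal at 4.66%. Single arrays carried some of these means: without null capture 5 the Mal mean was 1.84%, and Mal exceeded Calb1 in 2 of the 5 null captures, while without wild-type capture 2 the Calb1 mean was 14.7%. The ranges of neighbours over arrays overlapped in all 8 pairs of each order. Read within arrays, Prom1 had the highest share of the 9 genes in each of the 9 captures. It also had the highest share in every hand-dissected mesenchyme, at 38.7% to 39.9%, where the other genes reached at most 9.43%. Its rank in the captures therefore includes that baseline. Over the alternative settings the Prom1 mean ran between 34.6% and 63.8% in the wild-type captures and between 80.3% and 107.3% in the null captures. In the wild-type captures Wfdc2 lay above Calb1, Spint1 above Sgpp2 and St14 above Mal in 4 of 4 arrays, and no other neighbours kept their order on every array. The lowest share belonged to Mal in 6 captures (null 2, 3 and 4 and wild-type 2, 3 and 4), to Calb1 in null capture 1, to St14 in null capture 5 and to Sgpp2 in wild-type capture 1.

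Of these lowest signals, those of Mal in null capture 3 and Calb1 in null capture 1 were below the median of their array. Over genes above that median, the highest share within a capture was between 10.99 (null capture 5) and 84.6 (null capture 4) times the lowest in the null captures, and between 6.92 (capture 2) and 38.0 (capture 3) times in the wild-type captures. The median share over the 9 genes was 15.3%, 16.5%, 11.7%, 7.13% and 28.7% in null captures 1 to 5, and 14.2%, 27.3%, 6.06% and 23.0% in wild-type captures 1 to 4. Wild-type captures ordered most genes alike. Wild-type capture 2 was the highest of its group for 7 genes and wild-type capture 3 the lowest for 8, Prom1 being the exception in that it was highest in capture 3. Null captures did not share 1 order. Null capture 5 was highest for Calb1, Mal, Sgpp2 and Epcam, null capture 2 for Wfdc2, Spint2 and Prom1, and null capture 1 for Spint1 and St14. Null capture 1 was also the lowest of its group for Calb1, Sgpp2 and Prom1, and null capture 4 was lowest for Wfdc2, Epcam, Spint2 and St14. The ratio of highest to lowest array was wider among the null captures than among the wild-type ones for 7 genes, with 5 arrays against 4.

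**Figure D2:**
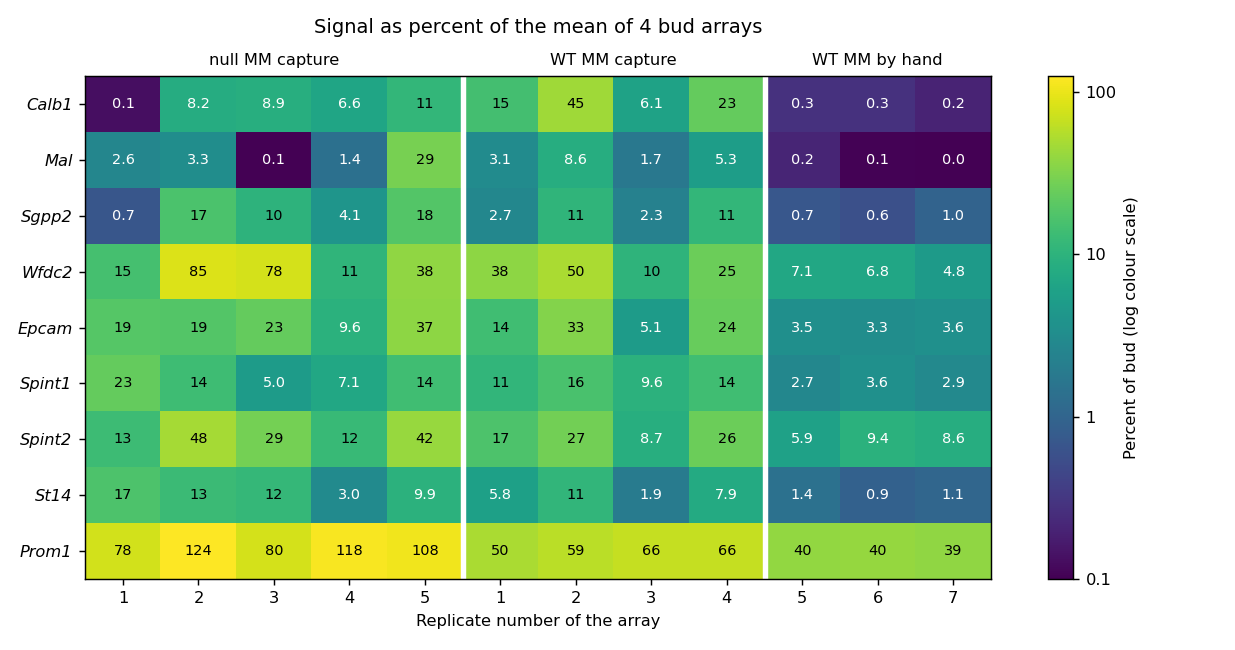
Signal of each gene in each mesenchyme array as percent of the mean of the 4 bud arrays, on a log colour scale that ends at 0.1%. Mal lies below that end in null capture 3, at 0.093%, and in hand-dissected replicate 7, which prints as 0.0. Columns are arrays by replicate number, null captures to the left of wild-type captures and hand-dissected mesenchyme at the right. Prom1 is the brightest gene of every mesenchyme array, captured or hand-dissected. In null capture 1 Calb1 is at 0.129% while Spint1 is at 23.1%.

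Null against wild-type captures was the comparison that shares no array with the one the genes were chosen on, and it was tested with limma over 23387 probe sets. Of the 9 genes, 0 were higher and 0 lower at an adjusted p below 0.05, where 0.748% of 12161 genes were called higher and 0.995% lower. An unadjusted p below 0.05 was reached by 1 of the 9, Prom1, and by 19.1% of all genes tested. Prom1 signal averaged 40622 ± 8583 in the null captures (SD, n = 5) and 24187 ± 3079 in the wild-type captures (SD, n = 4), a ratio of 1.68. Its log2 difference was 0.73 ± 0.17 (SE), with a 95% interval of 0.36 to 1.10 and an adjusted p of 0.0548, just short of the threshold. Null and wild-type arrays were apart for Prom1 alone of the 9, where 3.26% of 12161 genes had null arrays apart above wild-type and 5.77% below. Prom1 passed the threshold without null capture 1 (adjusted p = 0.0139) and in 3 other alternatives, and over all 20 alternatives its adjusted p lay between 0.0139 and 0.156.

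For the remaining 8 genes adjusted p lay between 0.313 and 0.906, and the intervals were wide. Calb1 had the largest difference, -2.14 ± 1.08 (SE) with a 95% interval of -4.49 to 0.22, from means of 4302 ± 2571 in the null captures (SD, n = 5) and 13763 ± 10382 in the wild-type captures (SD, n = 4). Without null capture 1, whose Calb1 signal was 79.4, the Calb1 difference was -1.03 with an adjusted p of 0.21. Mal differed by -0.54 ± 0.96 and Spint1 by -0.15 ± 0.42, which turned to 0.15 with each array centred on its median. The differences were positive for Sgpp2 at 0.24 ± 0.87, Wfdc2 at 0.34 ± 0.65, Epcam at 0.35 ± 0.50, Spint2 at 0.46 ± 0.46 and St14 at 0.71 ± 0.55. These intervals do not show that the genotypes hold equal levels: for St14 the interval ran between -0.48 and 1.91 and for Mal between -2.64 and 1.56. Together 6 genes had positive and 3 had negative differences, with a median of 0.34 over the 9 and -0.10 over all genes tested. The second Epcam probe set gave -0.69 ± 0.37 (adjusted p = 0.336), opposite in sign to the first.

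**Figure D3:**
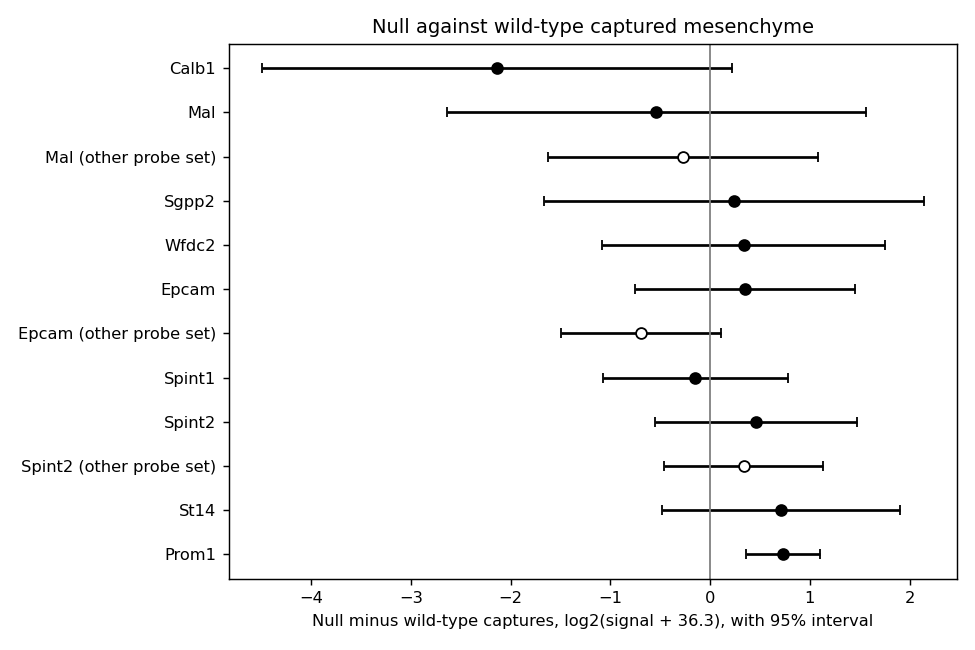
Null minus wild-type captures for each gene in log2(signal + 36.3), with 95% intervals; filled points are the representative probe sets and open points the other tested probe sets of the same gene. Among the 12 probe sets the interval of Prom1 alone lies clear of 0, and the intervals of Calb1 and Mal are the widest.

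Genes that work beside these 9 were read as lists set by function. The lists were chosen with earlier results of these data known, so their counts in UB against MM by hand, here and below, are description. Of 17 measured genes of epithelial membranes and junctions, 17 were higher in UB than in MM by hand, where 13.9% of 12435 genes were called higher. In MM by hand 12 to 14 of the 17 were below the array median, so most passed the filter only through the bud. The 3 brightest in bud were the keratin Krt8 and the tight junction claudins Cldn7 and Cldn3. Krt8 signal averaged 7927 ± 6078 in the null captures (SD, n = 5) and 6580 ± 4242 in the wild-type captures (SD, n = 4), and Cldn7 averaged 2058 ± 1772 and 3008 ± 2569 in the same order. Between null and wild-type captures 0 of the 14 tested junction genes were called in either direction (2 had an unadjusted p below 0.05, where the share over all genes was 19.1%), and their median log2 difference was -0.60. The captures' median share of bud over this list was 2.91% to 11.6% in null and 1.63% to 18.9% in wild type, and in each of the 9 captures it was lower than the median over the 9 genes.

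Partners of matriptase include the proteases Tmprss2, Hpn (hepsin) and Prss8 (prostasin), and Met, the receptor of hepatocyte growth factor. Of 9 tested in UB against MM by hand, 5 were higher in UB and 1, Mst1r, was lower. Of all 12435 genes 13.9% were called higher and 14.6% lower. Mst1r encodes the receptor of macrophage stimulating protein and read 58.3 ± 23.5 in UB (SD, n = 4) and 184 ± 44.8 in MM by hand (SD, n = 3). Between the captures 0 of 6 were called in either direction (0 had an unadjusted p below 0.05, beside 19.1% of all genes), with a median of 0.01. Met signal averaged 3331 ± 1330 in the null captures (SD, n = 5) and 3094 ± 760 in the wild-type captures (SD, n = 4), a difference of 0.04 ± 0.32. Tmprss2 differed by -0.55 ± 0.65 and Hpn by 0.27 ± 0.40.

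Regulators of epithelial genes showed 6 of 8 tested genes higher in UB than in MM by hand and 0 lower. Of all 12435 genes 13.9% were called higher and 14.6% lower. Null against wild-type captures gave 0 of 7 called (1 had an unadjusted p below 0.05, beside 19.1% of all genes), with a median of 0.06. Esrp1, a splicing factor of epithelia, averaged 1504 ± 1033 in the null captures (SD, n = 5) and 3011 ± 2324 in the wild-type captures (SD, n = 4), a difference of -0.92 ± 0.58 (adjusted p = 0.424). Grhl2, a grainyhead-like factor, differed by 0.66 ± 0.57. Among 5 tested relatives of the 9 genes, 0 were called between the captures (1 had an unadjusted p below 0.05, beside the same 19.1%), with a median of -0.69. Mal2, a relative of Mal, was at 65.0 ± 60.2 in the null captures (SD, n = 5) and 295 ± 217 in the wild-type captures (SD, n = 4), a difference of -1.73 ± 0.63 (adjusted p = 0.172). Wfdc15b, a secreted relative of Wfdc2, differed by -1.13 ± 0.89.

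Markers of bud identity, transcription factors and signalling genes of the duct, were read beside the 9 genes. Over 11 measured genes the median share of the bud level was 9.14%, 14.8%, 5.82%, 14.2% and 12.5% in null captures 1 to 5, and 8.498%, 15.4%, 8.70% and 20.8% in wild-type captures 1 to 4. In UB against MM by hand 9 of 10 tested were higher and 0 lower, where 13.9% of 12435 genes were called higher and 14.6% lower. This list too was chosen with earlier results known, so that count is description. Of 10 tested, 0 were called between the genotypes (2 had an unadjusted p below 0.05, near the 19.1% of all genes), with a median of -0.53. Ret, the receptor through which the bud responds to Gdnf, read 2841, 2556, 1145, 423 and 1484 in the null captures and 1168, 3577, 584 and 7325 in the wild-type captures, so the 2 genotypes overlapped. Emx2, a homeobox gene of duct epithelium, read 170, 182, 230, 3955 and 4026 in the null captures, against 884, 1978, 1368 and 1733 in the wild-type captures. The first 3 null captures lay below and the other 2 above all wild-type captures.

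Some markers of other epithelia read high in 1 to 3 null captures, and those named here outside the list rule were picked after their values were seen. Of the 6 hindgut and cloacal markers 2 were tested between the captures and 0 called. An unadjusted p below 0.05 was reached by 1 of the 2, beside 19.1% of all genes. None of the 6 coelomic and gonad markers was bright enough to be tested. Shh, made by gut and urogenital sinus epithelium and by the ureter, was 16329 and 43990 in null captures 1 and 2, against 19.4 to 1669 in the other 3, 5.1 to 1061 in the wild-type captures and 1194 to 4709 in UB. Foxa1 was 1400 and 1528 in null captures 1 and 2 and at most 118 in the other captures. The keratin Krt5 was 2281, 1923 and 2612 in null captures 1, 4 and 5 and at most 260 in the other captures, a difference of 2.33 ± 0.92 that did not pass (adjusted p = 0.207). The hindgut marker Cdx2 read between 2.9 and 99.3 in the null captures, against 55.7 to 86.4 in the wild-type captures. Null capture 5, highest for Mal and Epcam, also held 12360 of Amhr2 and 3089 of Nr5a1, markers of gonad and coelomic epithelium, against at most 428 and 33.7 in the other captures. Summed over the lists, 6 hindgut and cloacal markers reached 385 to 45735 in the null captures and 279 to 1310 in the wild-type captures. The highest sum, in null capture 2, was mostly Shh at 43990, while Foxa2, Upk1b and Krt5 read 32.5, 64.0 and 112.6 there. In null capture 1 Foxa2 was 537 and Upk1b 1117. The 6 coelomic and gonad markers reached 28824 in null capture 5 alone and 189 to 504 in the other null captures, against 290 to 803 in the wild-type captures. Their part in the levels of the 9 genes was not tested. Without null captures 1 and 2 the Prom1 difference was 0.74 (adjusted p = 0.0335), and without null captures 1, 2 and 5 it was 0.69 (adjusted p = 0.0842). Both sets were chosen after the values were seen. Null capture 4, with Krt5 at 1923, stays in both, so they are no test of the part of other tissue.

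Early nephron genes and markers of other cell types were also read between the captures. Dll1, a Notch ligand of nascent nephrons, averaged 5695 ± 1241 in the null captures (SD, n = 5) and 1152 ± 399 in the wild-type captures (SD, n = 4), a difference of 2.32 ± 0.28 with an adjusted p of 0.00407. It was the 1 of 5 tested nascent tubule genes to be called, where 0.748% of 12161 genes were called higher and 0.995% lower. Wnt4, which drives tubule formation, read 2869 to 11815 in the null captures and 1266 to 4367 in the wild-type captures, a difference of 1.62 ± 0.45 that did not pass (adjusted p = 0.0923). The median over the 5 was 0.61.

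Of the other cell types, 4 of 5 macrophage markers were tested and 1 was called, Tyrobp, an adaptor of immune receptors. Among all 12161 genes 0.995% were called lower. Tyrobp was lower at 75.9 to 708 in the null captures, against 1104 to 2104 in the wild-type captures, a difference of -2.28 ± 0.50 with an adjusted p of 0.047, close to the threshold. The median over the macrophage markers was -2.32. For 7 tested endothelial markers the median was -1.30 with 0 called (3 had an unadjusted p below 0.05), and for 4 neuron and neural crest markers it was 1.34 with 0 called (2 had an unadjusted p below 0.05). Among all genes tested 19.1% had an unadjusted p below 0.05. The neuronal tubulin Tubb3 read 647 to 3931 in the null captures and 152 to 974 in the wild-type captures, a difference of 2.06 ± 0.63 that did not pass (adjusted p = 0.119). Summed signal was 923 to 12046 in the null captures and 8967 to 19115 in the wild-type captures for 5 macrophage markers, 3786 to 8402 and 4063 to 22181 in the same order for 7 endothelial markers, and 2679 to 23578 and 2087 to 5011 for 5 neuron and neural crest markers. Stroma (6 tested), erythroid (4), nephron progenitor (7) and germ cell (1) markers had 0 called, with medians of -0.36, -0.93, -0.43 and 0.39. The part of nephron, macrophage, endothelial and neuronal RNA in the Prom1 level was not tested.

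**Figure D4:**
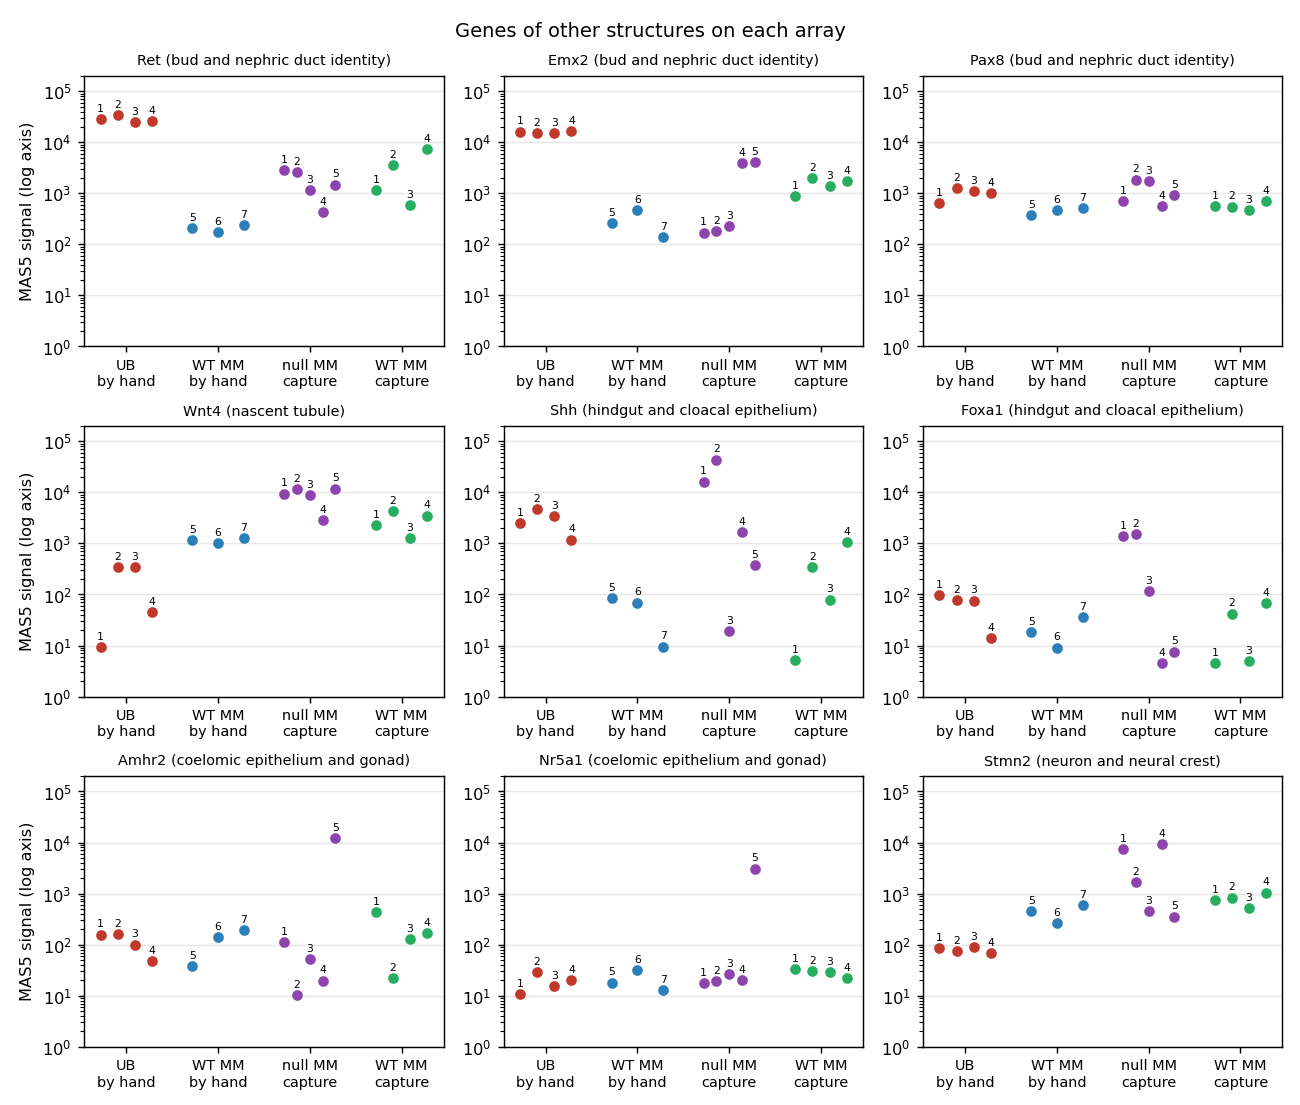
MAS5 signal (log axis) of 9 marker genes of bud, nascent tubule, hindgut and cloacal epithelium, coelomic epithelium and gonad, and neurons on each array, with groups along the horizontal axis and points numbered by replicate. Null captures 1 and 2 stand above all other captures for Shh and Foxa1, and null capture 5 for Amhr2 and Nr5a1.

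Genes with the pattern most like the 9 were found by Pearson correlation of log2 signal with the mean standardized profile of the 9 genes, over 13066 genes and all 16 arrays. The closest were Cldn7 (r = 0.985), Cldn3 (0.980), Prss8 (0.965), Ezr (0.963), Glb1l2 (0.962), Krt8 (0.954), Pkp2 (0.954), Cldn6 (0.954), Tfap2b (0.948) and Clcn3 (0.942). Most of this likeness is the gap between bud and mesenchyme that the points share by group. Of the 9 genes themselves Epcam followed the mean most closely (0.977) and Prom1 least (0.771). Each of the 9 is part of that mean, here and over the captures. Their r values are therefore raised and cannot be set beside those of other genes. Over the 9 captures alone the closest of 12161 genes were Ezr (0.919), Glb1l2 (0.902), Ercc6l2 (0.899), Lratd2 (0.894) and Cldn7 (0.877). Ezr encodes ezrin, which links apical membranes to actin. Its signal averaged 2379 ± 849 in the null captures (SD, n = 5) and 1863 ± 686 in the wild-type captures (SD, n = 4). There Spint2 (0.959) and Epcam (0.876) followed the mean of the 9 most closely, while Calb1 (0.401), Spint1 (0.334) and Prom1 (0.289) followed it least.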

How the data were processed

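Each of 16 RNA samples, after 2-round amplification, went onto its own Affymetrix mouse array, per the labels' protocols. The deposited values are linear MAS5 intensity signals, per the submitters' processing notes; these give no version. In the deposited intensities the mean after removal of 2% at each tail is 1500 on every array, which was read from the values. Array medians ran between 112.7 and 209.2. Of 45037 probe sets left after 64 controls, 34945 had 1 symbol in the platform's annotation, 932 had several and 9160 had none here.

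Signals were taken as log2(signal + 36.3). A probe set was kept if, on as many arrays as the smaller group has or more, it exceeded the array's median. Null and wild-type captures were fitted with limma 3.58.1 (lmFit, eBayes with intensity trend) in R 4.3.3, with Benjamini-Hochberg adjustment over all kept probe sets and a threshold of 0.05; adjusted p values, SE and intervals are limma's. The steps were tested on simulated captures, with changes put into brighter probe sets only. There 6 of 50 changes of 1 log2 unit and 40 of 50 changes of 2 units were called, so changes of 1 unit are mostly missed. The named genes are the 9 members, from each list the genes called between captures and otherwise up to 3 brightest in bud, and the 10 and 5 most alike; for lists of cell types other than bud, genes beyond the called ones were named after their values were seen, or not at all. The members and lists were chosen with earlier results of these data known. Arrays give no read depth, and their number limits the precision. Alternatives covered offset, filter, normalization, array weights, trend, replicate block, probe set and samples left out. Planned searches of protein sequences were not run. Figures used matplotlib 3.10.9.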

Additional observations from a re-analysis of the deposited data

Results flagged for a closer look

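Within a group of 4 or 5 arrays, 3 signals of the 9 genes lay farther from their neighbours than Dixon's test allows at the 95% level, out of 27 groups tested; chance alone does so in about 1 of 20 groups. Mal in null capture 5 was the highest of its group at 2943.8, with a gap to the next array of 0.889 of the group's range. The same array held the highest Amhr2, Nr5a1 and Upk3b signals of all 16 arrays. Spint1 in bud array 2 was the highest of its group at 6535.4, a gap of 0.855 of the range. St14 in bud array 2 was also highest, at 10102.6, with a gap of 0.833 of the range. Bud array 2 was the highest bud array for 6 of the 9 genes.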

How the results depend on the processing

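The number of probe sets called between null and wild-type captures, 138 higher and 273 lower, depended on the settings. Those called higher numbered 76 without the filter, 511 with array weights, 54 without the intensity trend and 331 without null captures 1 and 2. Those called lower numbered 180 without the filter, 71 with median centring (beside 136 higher), 1143 with array weights, 161 without the trend, 1127 without null captures 1 and 2, and 689 without null captures 1, 2 and 5. The sets without several null captures were chosen after the data were seen. Leaving out 1 array gave 21 to 528 higher and 39 to 1281 lower, with both highest counts without null capture 1. The cause was not tested. Of the 9 genes, 1 was called higher (Prom1) with the filter applied to every array of a group, with array weights, without null capture 1, and without null captures 1 and 2; leaving out 1 array gave 0 or 1 called higher and 0 called lower.

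Replicate numbers 1 to 4 occur in both groups of captures, but no label pairs them, and deviations of same-numbered arrays correlated at -0.005, 0.034, -0.047 and 0.074. With a replicate block, in which null capture 5 stands alone, 23 probe sets were called higher and 30 lower, and 0 of the 9 genes.

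Differences of 5 genes, none of them called, changed sign when 1 array was left out, in log2: Mal ran between -1.36 (without null capture 5) and 0.15 (without null capture 3), Sgpp2 between -0.14 (without null capture 5; also below 0 without null capture 2, wild-type capture 1 or wild-type capture 3) and 0.99 (without null capture 1), and Wfdc2 between -0.11 (without wild-type capture 3) and 0.75 (without null capture 4). Epcam ran between -0.18 (without wild-type capture 3) and 0.71 (without wild-type capture 2), and Spint1 between -0.40 (without null capture 1) and 0.11 (without null capture 3). Sgpp2 was -0.14 with the replicate block, Epcam was -0.048 without null captures 1, 2 and 5 and -0.69 on its other probe set, and Spint1 was 0.10 with quantile normalization and 0.15 with median centring. Median centring moved the median of all probe sets to 0.15, against -0.15. The median share of bud over the 9 genes, averaged over arrays, was 15.9% in the null captures and 17.7% in the wild-type captures. Each alternative moved this median by less than the spread between arrays. For shares of single genes, 3 results moved by more than the gene's own spread. The Prom1 mean in the wild-type captures ran between 34.6% and 63.8% over the settings, with an SD of 7.69% between arrays.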
